A study of Mus musculus with 12 samples.

Results

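Serpina12 and 9 other clade A serpins were followed in mouse liver: Serpina1a, Serpina1b, Serpina1c, Serpina1d, Serpina1e, Serpina3k, Serpina3m, Serpina3n and Serpina6. These 10 genes were taken by name from a deposited table of read counts for 24527 gene symbols, 26 of which begin with Serpina. All 10 passed the filter on low counts, as did 13204 genes in all. The set was chosen by name with earlier results of these data in view, and Serpina12 was selected on its measured level in females conceived by in vitro fertilization (IVF) against naturally conceived ones. Its values in every comparison with female libraries are therefore given as a description, with no test.

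Poly-A RNA had been sequenced from the livers of mice aged 39 weeks, offspring of CF1 females and B6SJL males. The animals were conceived naturally or by IVF, the fertilization of eggs in a dish before transfer into a foster mother. Females and males of each origin gave 4 groups of 3 libraries: IVF females, natural females, IVF males and natural males. The question was how IVF affects the adult liver in either sex. The parents came from different stocks, so the offspring were not inbred.

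Serpins are secreted or intracellular proteins that mostly block serine proteases. A protease cuts an exposed stretch near the serpin's end, the reactive centre loop, and is then trapped by a change in the serpin's shape. The letters of that loop largely set which protease is caught. Hepatocytes make most clade A serpins of the blood plasma. Serpina1 genes encode forms of alpha-1 antitrypsin, known as an inhibitor of neutrophil elastase, and mice carry several near-identical copies. Whether every copy inhibits that protease was not examined here. Serpina3 genes are relatives of human antichymotrypsin, and Serpina3n among them is an acute phase gene and an inhibitor of granzyme B. Serpina6 encodes corticosteroid-binding globulin, which carries glucocorticoids in plasma and blocks no protease. Serpina12 encodes vaspin, first known from fat tissue, an inhibitor of the kallikrein Klk7.

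All 10 genes lie on mouse chromosome 12 and have 5 exons in the annotated transcript used here (GENCODE M21, GRCm38). Serpina6 lies at one end of the stretch (chr12:103646630-103657218, minus strand) and Serpina3n at the other (chr12:104406646-104414334, plus strand). Between them are Serpina1b (chr12:103728156-103738189), Serpina1d (chr12:103763587-103773633), Serpina1a (chr12:103853295-103863619), Serpina1c (chr12:103894926-103904950), Serpina1e (chr12:103946931-103956897) and Serpina12 (chr12:104028769-104044443), all on the minus strand. Serpina3k (chr12:104338486-104345739) and Serpina3m (chr12:104387157-104394259) are on the plus strand.

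The 5 Serpina1 coding sequences each had 1239 bases, or 413 codons, and aligned without gaps. Pairs were identical at 96.3% to 98.5% of positions, with Serpina1a and Serpina1c the closest pair, and 86 positions (6.94%) varied among the 5. The variable positions were not spread evenly. The most in any window of 75 bases was 19 (25.3%), in 3 overlapping windows that begin at codons 367, 368 and 369, and the median window had 4. The first of these, codons 367 to 391 in exon 5, is used here. Its sequences are printed because they show where the paralogs can be told apart. Capitals mark the positions that vary among the 5 genes, and each line is read 5′ to 3′ on the minus strand.

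Serpina1a (chr12:103853744-103853818): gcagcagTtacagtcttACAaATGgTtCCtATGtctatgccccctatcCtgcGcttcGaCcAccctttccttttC
Serpina1b (chr12:103728311-103728385): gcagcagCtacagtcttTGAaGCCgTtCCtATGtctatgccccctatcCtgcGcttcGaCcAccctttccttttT
Serpina1c (chr12:103895081-103895155): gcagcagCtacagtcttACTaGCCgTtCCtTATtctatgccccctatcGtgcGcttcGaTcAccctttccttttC
Serpina1d (chr12:103763749-103763823): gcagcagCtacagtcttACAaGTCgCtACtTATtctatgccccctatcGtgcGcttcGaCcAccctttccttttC
Serpina1e (chr12:103947087-103947161): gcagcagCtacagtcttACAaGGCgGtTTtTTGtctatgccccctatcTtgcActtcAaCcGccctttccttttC

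In this window Serpina1b differed from Serpina1a at 7 positions, Serpina1d at 9, Serpina1c at 10 and Serpina1e at 12. As background, the last exon of serpin genes encodes the reactive centre loop.

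**Figure D1:**
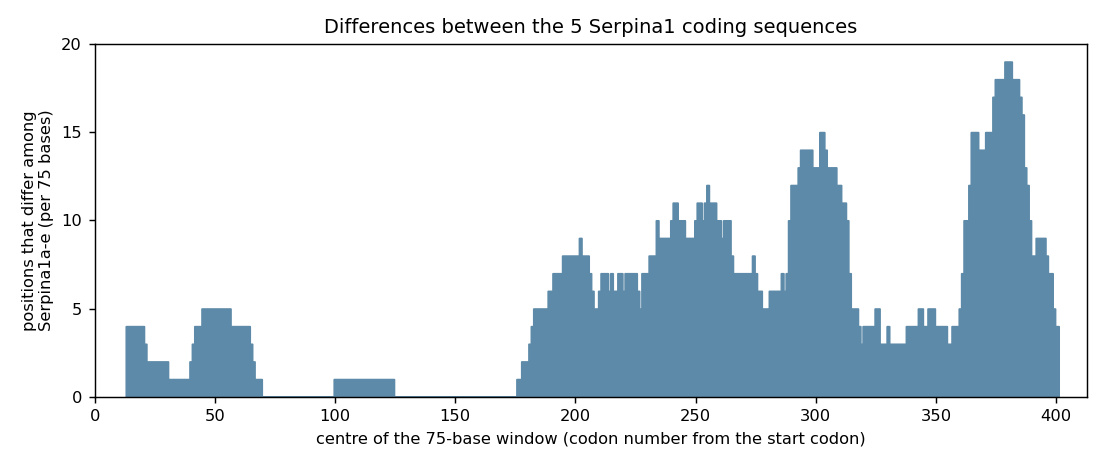
Number of positions that differ among the coding sequences of Serpina1a to Serpina1e in each window of 75 bases (vertical axis), against the codon at the window's centre (horizontal axis). The highest count, 19, lies in 3 overlapping windows that begin at codons 367, 368 and 369, and long stretches of the first part of the coding sequence have counts of 0 or 1.

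Such likeness limits how reads can be assigned. Of all runs of 75 bases in the Serpina1a transcript, 69.6% also occurred in a transcript of another gene. The share was 66.1% for Serpina1c, 37.1% for Serpina1d, 25.1% for Serpina1b and 20.3% for Serpina1e. It was 7.36% for Serpina3k, 9.65% for Serpina3m and 1.46% for Serpina3n, and 0% for both Serpina6 and Serpina12. Read length and the rule for reads with more than 1 matching gene are not given in the sources used here, so the split among Serpina1 genes is uncertain. Serpina3k and Serpina3m were 90.9% identical in coding sequence.

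Promoter windows from 250 bases before to 50 after the annotated start (RefSeq, GRCm38.p6) were matched by symbol for 7 of the 10 genes: the 5 Serpina1 genes, Serpina3n and Serpina12. The overlapping parts of the Serpina1 windows were 91.4% to 97.6% identical between pairs. The letters TTCNNNGAA, a site of STAT factors that act downstream of growth hormone, were in none of the 7 windows on either strand and in 8.30% of 32851 windows of that length. For Serpina12 the 250 bases before the annotated start are printed whole, since its level differed most among the 10 genes and its window held no such match. They had 48.4% G and C.

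Serpina12 (chr12:104044444-104044693, minus strand): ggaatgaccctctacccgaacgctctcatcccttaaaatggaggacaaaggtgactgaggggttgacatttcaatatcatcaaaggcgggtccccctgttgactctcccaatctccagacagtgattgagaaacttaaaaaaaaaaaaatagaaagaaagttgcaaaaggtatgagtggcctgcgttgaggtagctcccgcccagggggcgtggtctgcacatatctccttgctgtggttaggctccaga

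A missing match says nothing of the factor.

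Library totals ranged from 6826534 to 27832271 counts. The smallest belonged to IVF female replicate 1 and the next, 8056230, to natural female replicate 2. These shallow libraries, 1 in each female group, were also left out together, and the values are given where a call changed. All 6 hepatocyte markers were detected in each group. Their summed level was 88862 to 97085 CPM (counts set to a common library size with TMM factors) in natural females and 90985 to 104300 CPM in IVF females. It was lower in males, at 80687 to 85800 CPM in natural and 66722 to 75169 CPM in IVF animals. Of the 6 markers, 3 had a positive log2 fold change in males against females of each origin, and 0 were called in any comparison. The 10 serpins held 3.27% to 5.80% of a female library's counts and 5.83% to 7.27% of a male library's. As in any bulk tissue, fewer cells of a type and less RNA per cell cannot be told apart.

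Per kilobase of transcript the levels spanned orders of magnitude. In natural males, mean CPM per kilobase was 10379 for Serpina1a, 9317 for Serpina1c, 7853 for Serpina3k, 7395 for Serpina1b, 4366 for Serpina1d and 3796 for Serpina1e. It was 1080 for Serpina3m, 879 for Serpina3n, 125 for Serpina6 and 6.34 for Serpina12. Serpina12 was also the lowest in natural females, at 0.278, in IVF females, at 1.87, and in IVF males, at 8.66 CPM per kilobase.

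**Figure D2:**
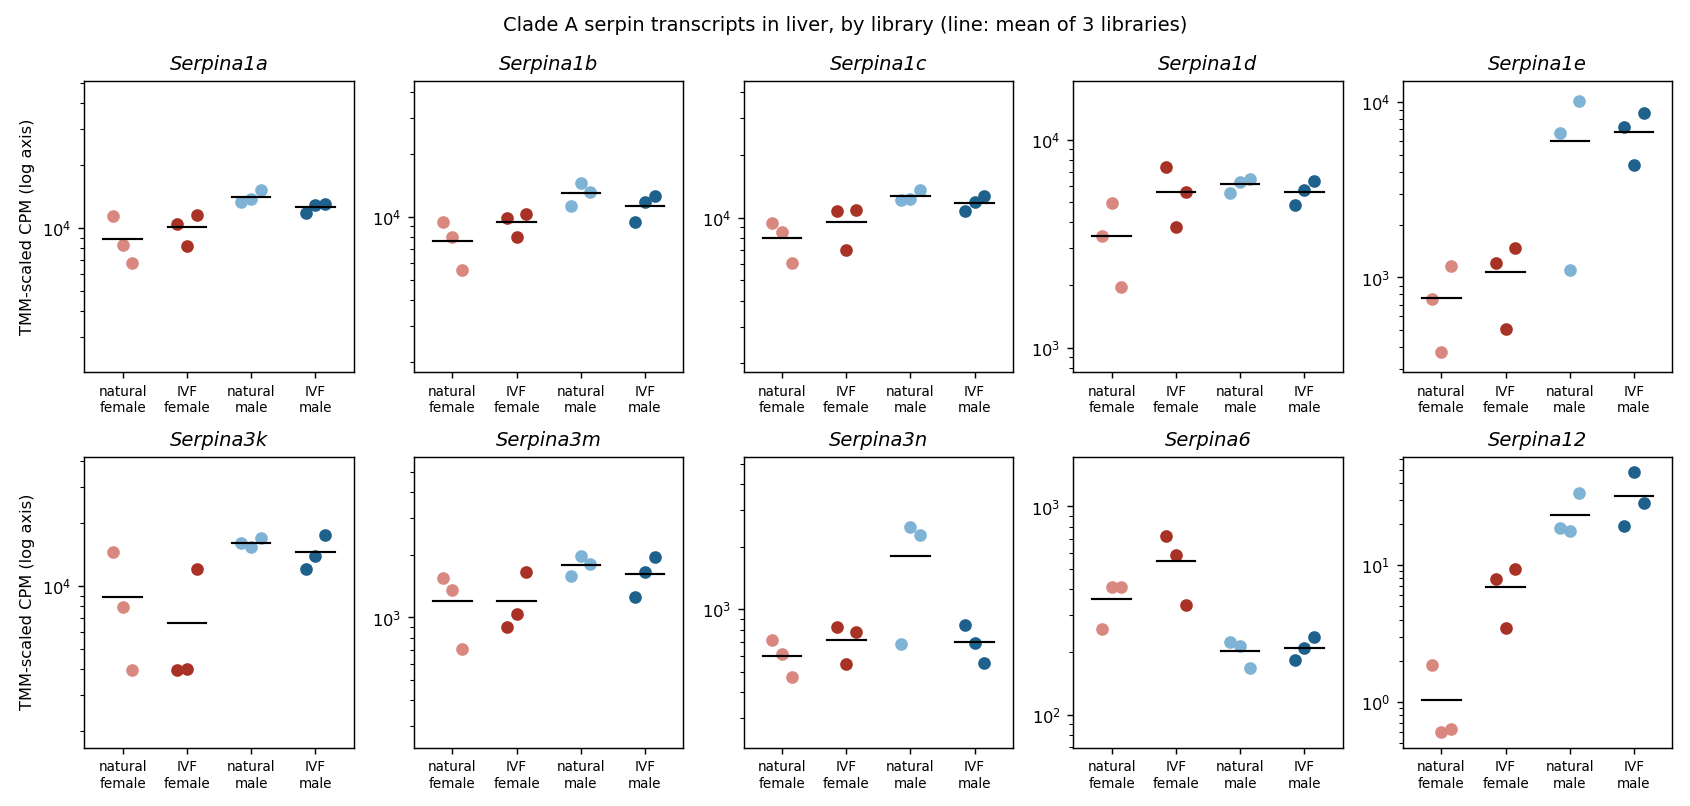
TMM-scaled CPM (log axis) of each of the 10 serpins in the 12 libraries, by group, with points for libraries and a line for the mean of 3. Serpina12 lies between 0.599 and 1.85 in natural females, between 3.49 and 9.36 in IVF females and between 17.7 and 47.9 in males, and Serpina3n is raised in 2 of the 3 natural males.

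Serpina12 was low in liver and lay in 3 ranges. Natural females had 1.85, 0.599 and 0.637 CPM, from 46, 5 and 11 counts. IVF females had 7.87, 3.49 and 9.36 CPM, from 53, 84 and 219 counts. Every IVF female library lay above every natural female library. Natural males had 18.6, 17.7 and 33.8 CPM, and IVF males had 19.4, 47.9 and 28.5 CPM. The male groups overlapped, and the lowest male library, at 17.7, stood above the highest female one, at 9.36. The order of the group means was thus natural females (1.03 ± 0.709, SD, n = 3), IVF females (6.91 ± 3.05), natural males (23.4 ± 9.07) and IVF males (31.9 ± 14.5), and the last pair did not differ beyond their spread.

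As a description, Serpina12 had a log2 fold change of 2.62 ± 0.55 (SE) in IVF against natural females. Groups without overlap and higher after IVF made up 3.55% of the 13204 genes in that comparison. The log2 fold change was 4.39 ± 0.56 in natural males against natural females and 2.22 ± 0.49 in IVF males against IVF females. The male minus the female IVF effect was -2.17 ± 0.71 on the log2 scale. These values rest in part on natural female replicate 1, the highest of its group. Without that library the log2 fold change was 3.45 for IVF in females and 5.22 for sex after natural conception. Without both shallow libraries the female IVF value was 2.32.

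In males, the comparison that did not choose it, Serpina12 did not pass the test. Its log2 fold change in IVF against natural males was 0.45 ± 0.46 (SE), with an adjusted p of 1 by the quasi-likelihood test of edgeR. Adjustment here and below was by Benjamini and Hochberg over all 13204 genes. IVF male replicate 2, at 47.9 CPM, was the highest library. Without single libraries the value ranged from 0.03 to 0.81.

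Vaspin was first described in fat, so fat cell markers were examined beside it. Among females their summed level was 0.839 to 2.20 CPM in natural and 0.831 to 1.33 CPM in IVF libraries. Among males it was 1.82 to 4.11 CPM in natural and 3.39 to 6.32 CPM in IVF libraries. It was higher in IVF males than IVF females, while natural males and females overlapped, unlike for Serpina12. The sum was made up almost wholly of Cidec, a lipid droplet protein that liver also makes. Cidec alone of the 6 passed the filter, and it was higher in IVF males than IVF females (log2 fold change 1.93, adjusted p = 0.0424). Of all genes 2.19% were called in that comparison. In natural males against natural females Cidec had a log2 fold change of 0.59 and was not called. Lep and Retn, the hormones leptin and resistin, had 0 counts in all 12 libraries, and Adipoq, adiponectin, was at most 0.0984 CPM. Between IVF and natural females, Cidec was lower after IVF (-0.75, adjusted p = 1), where Serpina12 was higher.

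The genes most like Serpina12 over the 12 libraries were, by Pearson's r of log2 CPM among 11802 candidates, Hsd3b5 (0.936), Tmem258 (0.932), Nudt7 (0.930), Sec13 (0.920) and Mcm10 (0.912). Hsd3b5 is a steroid dehydrogenase of male mouse liver, Nudt7 a peroxisomal coenzyme A hydrolase and Mcm10 a DNA replication factor. The points are 6 libraries of each sex, so a shared sex difference raises such values. The named genes were picked as the closest over all 12 libraries, which can also raise r within either sex. Serpina12 itself was selected on its level in IVF against natural females, and r within females includes that difference. Values within a sex are therefore given as a description only. Within the 6 female libraries the r with Hsd3b5 was 0.821 and within the 6 male ones 0.538. For the rest it was 0.762 to 0.861 in females. In males it was 0.316 for Tmem258, 0.325 for Nudt7, 0.728 for Sec13 and 0.139 for Mcm10. Hsd3b5 had a mean of 1.48 CPM in natural females, 10.3 in IVF females, 212 in natural males and 241 in IVF males. IVF females had 20.2, 1.83 and 8.98 CPM, and natural females 1.93, 2.28 and 0.232 CPM, so that the female groups of Hsd3b5 overlapped, unlike those of Serpina12.

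The 5 Serpina1 genes encode the main protease inhibitor of plasma and were among the most abundant transcripts. Among females their summed level was 21542 to 34467 CPM in natural and 27561 to 39855 CPM in IVF libraries. Among males it was 48153 to 58609 CPM in natural and 44084 to 53288 CPM in IVF libraries. With TMM factors every male library had more than every female library. Without them the sexes still lay apart within each origin. Across origins, IVF female replicate 3 then held 4.22% of its counts in these genes and natural male replicate 2 held 4.11%. Groups without overlap and higher in males made up 10.1% of all genes in natural animals and 11.8% after IVF. The summed counts did not pass edgeR's test by sex. The log2 fold change was 0.85 ± 0.28 (SE) in natural animals (adjusted p = 0.178) and 0.43 ± 0.28 after IVF (adjusted p = 0.533). Single genes showed the same order less clearly. Serpina1a ranged from 6806 to 11615 CPM in females and from 11760 to 15200 CPM in males. Serpina1b ranged from 5537 to 10300 CPM in females and from 9446 to 14614 CPM in males, and Serpina1c from 6071 to 10870 and from 10821 to 13563 CPM.

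None of these 3 genes, nor Serpina1d, passed the test by sex. In natural males against natural females the log2 fold changes were 0.68 ± 0.25 (SE) for Serpina1a, 0.77 ± 0.26 for Serpina1b, 0.67 ± 0.26 for Serpina1c and 0.82 ± 0.34 for Serpina1d. The adjusted p-values were 0.229, 0.192, 0.249 and 0.288, and all 4 genes had groups without overlap. Groups without overlap made up 10.1% of all genes in that direction. After IVF the sex differences were 0.32, 0.26, 0.31 and 0.01, with adjusted p-values of at least 0.621. Serpina1d was the most variable of the 4 in females, with 3450, 4945 and 1967 CPM in natural and 7419, 3792 and 5588 CPM in IVF females.

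Serpina1e separated the sexes by more. Natural females had 749, 376 and 1162 CPM and IVF females 1212, 510 and 1482 CPM. Natural males had 6687, 1096 and 10152 CPM, and IVF males 7234, 4391 and 8630 CPM. After IVF every male library lay above every female one. Among natural animals male replicate 2, at 1096 CPM, lay inside the female range. The log2 fold change of males against females was 2.97 ± 0.72 (SE) in natural animals (adjusted p = 0.0678) and 2.66 ± 0.71 after IVF (adjusted p = 0.0907), so neither was called. Without natural male replicate 2 the first was 3.46 with an adjusted p of 0.014, and the second, 2.65, had an adjusted p of 0.0259. DESeq2's Wald test also called Serpina1e in both comparisons.

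The make-up of the Serpina1 counts does not depend on library size. In males Serpina1e held 12.5% ± 5.79 (SD, n = 6) of the summed Serpina1 counts, and in females 2.90% ± 1.501 (SD, n = 6). The male libraries had 13.7%, 2.28% and 17.3% in natural and 16.4%, 9.37% and 16.2% in IVF animals. The female libraries had 2.17%, 1.25% and 5.39% in natural and 3.04%, 1.85% and 3.72% in IVF animals. The difference of 9.64 percentage points gave p = 0.01 in a two-sided exact permutation test that exchanged sex labels within each mode of conception, where 400 arrangements are possible. Adjusted over all 5 shares, which sum to 100% and so depend on each other, p was 0.025.

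The share of Serpina1c was 24.6% ± 0.966 (SD, n = 6) in males and 27.3% ± 1.02 (SD, n = 6) in females. It was thus lower in males (exact permutation p = 0.01, adjusted p = 0.025). A larger share of Serpina1e lowers the other shares, so this test cannot tell whether Serpina1c itself changed. In CPM Serpina1c was higher in males, with log2 fold changes of 0.67 in natural animals and 0.31 after IVF, neither called. The share of Serpina1a was 2.79 points lower in males (exact permutation p = 0.045, adjusted p = 0.075). Those of Serpina1b and Serpina1d were 2.22 and 1.94 points lower, with adjusted p-values of 0.219 and 0.26. Without both shallow libraries the difference of Serpina1d was only -0.006 points. Shares of the 5 genes did not pass the test for IVF against natural, where the differences ranged from -1.65 to 1.75 points and the adjusted p-values from 0.55 to 0.64. Without both shallow libraries the sex differences of Serpina1e and Serpina1c were 9.26 and -2.46 points, each with an adjusted exact permutation p of 0.05, which is not under the threshold. Natural female replicates 1 and 2, left out singly, gave the same adjusted p of 0.05.

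**Figure D3:**
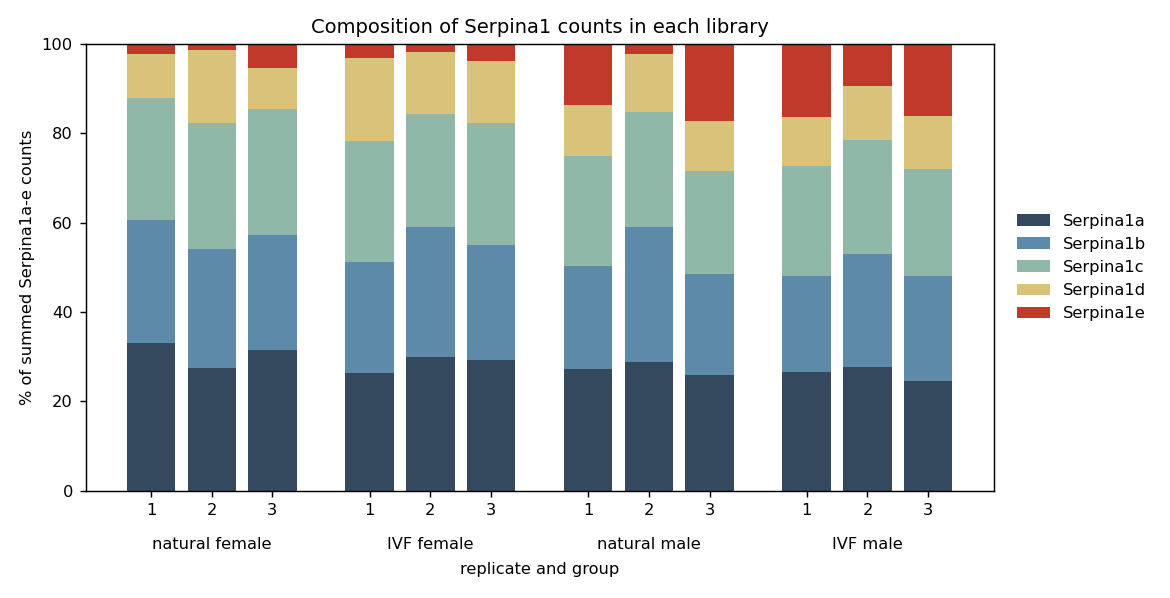
Share of each of the 5 Serpina1 genes in their summed counts (vertical axis, percent) for the 12 libraries by group and replicate. Serpina1e takes 9.37% to 17.3% in 5 male libraries, 2.28% in natural male replicate 2 and 1.25% to 5.39% in the female libraries.

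After IVF, Serpina1 genes did not pass the test in either sex. In females the log2 fold changes were 0.19 for Serpina1a, 0.30 for Serpina1b, 0.26 for Serpina1c, 0.70 ± 0.34 (SE) for Serpina1d and 0.49 for Serpina1e, each with an adjusted p of 1. In males, Serpina1a was 11760, 12976 and 13030 CPM after IVF and 13305, 13840 and 15200 CPM in natural animals. These groups did not overlap, as for 4.07% of all genes in that direction, and the adjusted p was 1. As a share of library totals, without TMM factors, Serpina1a overlapped between IVF and natural males.

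Serpina3k, an inhibitor of trypsin-like proteases, was as abundant as the Serpina1 genes and spread widely among females. Natural females had 14594, 7904 and 3958 CPM and IVF females 3964, 4005 and 12050 CPM. Natural males had 16017, 15398 and 17044 CPM and IVF males 12054, 13905 and 17640 CPM. Male libraries lay above the female libraries of the same origin in both cases, after IVF by a margin of 12054 to 12050 CPM. The coefficient of variation was 61.0% in natural and 69.8% in IVF females, and 5.15% in natural and 19.6% in IVF males. The sex differences were 0.87 ± 0.50 (SE) in natural animals (adjusted p = 0.449) and 1.12 ± 0.50 after IVF (adjusted p = 0.325) on the log2 scale. Serpina3m, its neighbour and close relative, ranged from 708.1 to 1653 CPM in females and from 1259 to 1978 CPM in males, and no comparison called it. Over the 12 libraries the log2 CPM of both genes had an r of 0.92, and they share part of their sequence.

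Serpina3n, the acute phase member, was raised in a pair of libraries. Natural males had 683, 2484 and 2274 CPM. Natural females had 711, 610 and 472 CPM, IVF females 819, 549 and 780 CPM, and IVF males 845, 692 and 555 CPM. Natural male replicates 2 and 3 lay far above the other 10 libraries, and natural male replicate 1 lay within the range of the other groups. The log2 fold change in IVF against natural males was -1.38 ± 0.41 (SE), with an unadjusted p of 0.00543 and an adjusted p of 1. In natural males against natural females it was 1.60 ± 0.41 (adjusted p = 0.082), and after IVF -0.04. Without natural male replicate 1 the natural sex difference was called (adjusted p = 0.00502), as it was by DESeq2. The male minus the female IVF effect was -1.64 ± 0.57, with an unadjusted p of 0.0138 and an adjusted p of 1.

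Other acute phase genes were high in the same libraries. The genes most like Serpina3n were Hpx (r = 0.940), the haem carrier haemopexin, Lcn2 (r = 0.918), an iron-siderophore carrier of the acute phase, and Dph3 (r = 0.917), a factor in diphthamide synthesis. Lcn2 had 14.7, 1615 and 1173 CPM in natural males and at most 181 CPM in any other library. Hpx had 2814, 10662 and 8543 CPM in natural males and 1717 to 4609 CPM elsewhere. Of 30 acute phase genes, all tested, 4 were called higher in natural males than natural females and 0 lower, where 1.77% of all genes were called: Saa1, Saa3, Hp and Hpx. In IVF against natural males 1 of 30 had a positive log2 fold change, with a median of -0.93 against 0.01 for all genes, and 12 had an unadjusted p under 0.05, as did 2.69% of all genes, while 0 were called by edgeR. In females 23 of 30 were positive after IVF, with a median of 0.28.

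**Figure D4:**
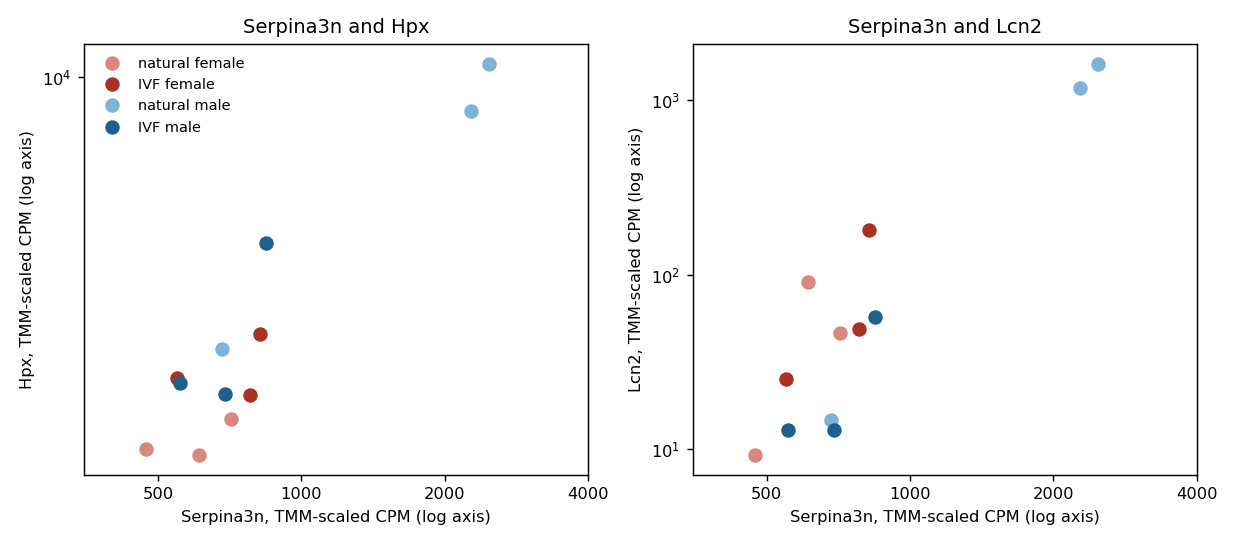
Serpina3n (horizontal, TMM-scaled CPM, log axis) against Hpx and Lcn2 (vertical, TMM-scaled CPM, log axis) in the 12 libraries. Natural male replicates 2 and 3 stand at the upper right, at 2484 and 2274 CPM of Serpina3n, and the other 10 libraries lie between 472 and 845 CPM.

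Macrophage markers were examined in the same groups. The summed level of 6 Kupffer cell and macrophage markers was 119 to 180 CPM in IVF and 216 to 254 CPM in natural males. In females it was 245 to 377 CPM after IVF and 234 to 316 CPM in natural libraries. In IVF against natural males 0 of 6 had a positive log2 fold change, where 6813 of all 13204 genes did, and 0 were called. Clec4f and Vsig4 were lower in IVF males than IVF females (log2 fold changes -1.05 and -1.81, adjusted p = 0.0215 and 0.0039). Of all genes 1.28% were called in that direction. Neutrophil markers summed to 1.10 to 4.05 CPM in IVF males and 1.28 to 3.28 CPM in natural males. Serpina3n itself ranged from 683 to 2484 CPM (3.64-fold) in natural males. The part of these cells in the values of Serpina3n was not tested.

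Serpina6, the plasma carrier of corticosterone, was the one member that lay lower in all male libraries than in all female ones. Natural females had 259, 411 and 409 CPM, IVF females 719, 585 and 334 CPM, natural males 223, 214 and 167 CPM, and IVF males 184, 208 and 236 CPM. The highest male library had 236 CPM and the lowest female one 259 CPM. In IVF males against IVF females the log2 fold change was -1.38 ± 0.29 (SE), so that IVF females had 2.61-fold the mean level of IVF males, and this was called (adjusted p = 0.0281), as were 1.28% of all genes in that direction. In natural animals it was -0.84 ± 0.28, with an adjusted p of 0.189. In IVF against natural females Serpina6 was 0.60 ± 0.28 (unadjusted p = 0.0554, adjusted p = 1), and those groups overlapped. The difference between both sex effects, which is the same contrast as that between both IVF effects, was called for 0 genes by edgeR and limma voom and for 9 genes by DESeq2, none of them among the 9 serpins tested. The titles of IVF female replicate 1 and IVF male replicate 2 share a number whose meaning the labels do not give. The call after IVF was lost without IVF female replicate 1, 2 or any single IVF male library (adjusted p 0.0832 to 0.115), and without both shallow libraries (adjusted p = 0.0638). In each of these fits Serpina6 was lower in males.

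Serpina6 binds glucocorticoids, and the receptor with its targets was examined beside it. The receptor gene Nr3c1 had 126 to 180 CPM in all 12 libraries. Of 19 genes of that list, all tested, none was called in natural males against natural females, and 1, Sult1e1, an oestrogen sulfotransferase, was lower in IVF males than IVF females (adjusted p = 0.0147), where 2.19% of all genes were called. Sult1e1 had 3.86, 2.95 and 14.0 CPM in IVF females and at most 0.0984 CPM in IVF males, which is under the level of 3 counts in those libraries. In natural females it had 0.160, 2.28 and 0.637 CPM. Per1 and Mt2 had the next smallest p-values, Per1 in females after IVF (1.87, adjusted p = 1) and Mt2 in males after IVF (-2.38, adjusted p = 1).

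Counted over the 9 serpins other than Serpina12, IVF was called in 0 of 9 in females, where 0% of all genes were called, and in 0 of 9 in males, where 0.00757% were (edgeR). The male minus the female IVF effect was called in 0 of 9, as in 0% of all genes. At an unadjusted p under 0.05 the numbers were 0, 1 (Serpina3n) and 1 (Serpina3n), where 3.7%, 2.69% and 3.87% of all genes were. DESeq2 and limma voom called 0 of 9 in each of the 3. The median log2 fold change of the 9 was 0.26 in females, with 7 positive, and -0.14 in males, with 2 positive. For all genes the medians were -0.01 and 0.01.

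By sex, 0 of 9 were called in natural animals, where 1.77% of all genes were, and 1 of 9, Serpina6, was called after IVF, where 2.19% were. In natural animals 7 of the 9 had an unadjusted p under 0.05, and after IVF 3 of the 9, against 14.9% of all genes in both. Groups did not overlap in natural animals for 6 higher in males and 1 lower, against 10.1% and 9.85% of all genes. After IVF they did not overlap for 3 higher and 1 lower, against 11.8% and 10.1%. The median log2 fold change of the 9 was 0.77 in natural animals and 0.31 after IVF, against -0.02 and 0.01 for all genes. DESeq2 called 4 of 9 in natural animals (Serpina1a, Serpina1b, Serpina1e and Serpina3n) and 2 of 9 after IVF (Serpina1e and Serpina6), and limma voom called 0 and 1. Genes of 1 family share reads and a cluster, so these 9 are not 9 independent observations.

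**Figure D5:**
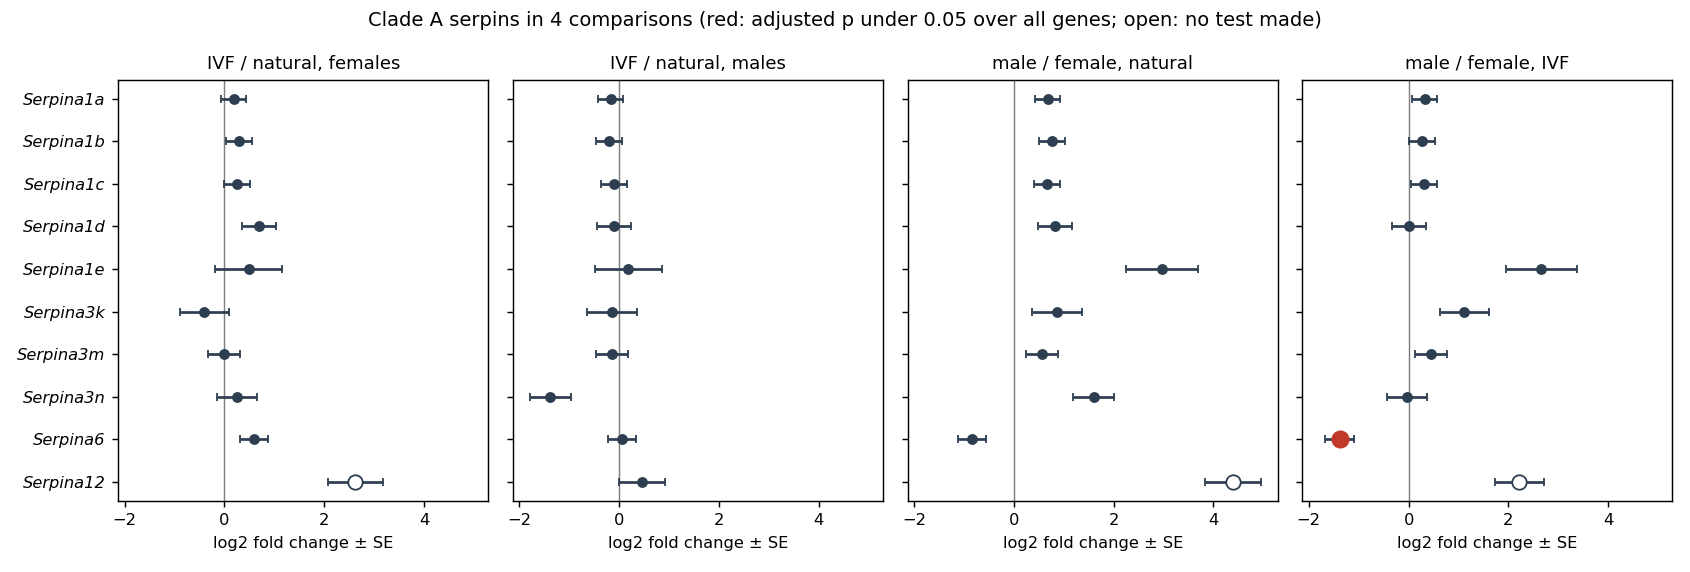
Log2 fold changes ± SE (horizontal) of the 10 serpins in IVF against natural females, IVF against natural males, natural males against natural females, and IVF males against IVF females. Serpina6 after IVF, at -1.38, carries the one adjusted p under 0.05 (red), and open symbols mark the 3 comparisons of Serpina12 that were not tested.

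Among 16 other clade A serpins 12 passed the filter, and 1 was called, after IVF, where 2.19% of all genes were called by sex. Serpina9, known from germinal centre B cells, had 3.71, 1.72 and 8.01 CPM in IVF males and 0.148, 0.0416 and 0.556 CPM in IVF females (log2 fold change 4.02, adjusted p = 0.0166). The IVF female values came from 1, 1 and 13 counts. Those of replicates 1 and 2 are under the level of 3 counts, so the size of this change is uncertain. In natural animals it was 2.16 (adjusted p = 0.159). Serpina4-ps1, annotated as a pseudogene, had 50.02, 271 and 94.1 CPM in natural males and 71.1, 117 and 648 CPM in IVF males, against 1.12 to 37.2 CPM in females. It was not called, with adjusted p-values of 0.25 and 0.0802, and is named after its values were seen. In natural animals 11 of the 12 were higher in males, with a median log2 fold change of 0.82, and 10 of 12 after IVF, with a median of 0.50. After IVF the medians were -0.11 in females and -0.18 in males.

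Of 19 serpins outside clade A, 14 passed the filter, and the same 3 were called by sex in natural and in IVF animals, where 1.77% and 2.19% of all genes were. Serpinb1a, an intracellular inhibitor of neutrophil proteases, had 41.5 to 87.8 CPM in natural females and 0.822 to 4.69 CPM in natural males, with log2 fold changes of -4.32 and -4.42 (adjusted p = 0.00537 and 0.00396). Serpinb8 was lower in males by -2.00 and -2.45 (adjusted p = 0.00971 and 0.00231). Serpine2, an inhibitor of thrombin and of plasminogen activators, was higher in males by 3.29 and 3.38 (adjusted p = 0.0186 and 0.0155). None of these was called for IVF.

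Of 20 target proteases and cofactors of these serpins 11 passed the filter and 0 were called in any comparison. Klk7, the target of vaspin, had 0 counts in 11 libraries and 0.116 CPM in natural female replicate 3. Elane, neutrophil elastase, was at most 0.297 CPM. Gzmb, granzyme B, and Prtn3, proteinase 3, had the smallest p-values: Gzmb was lower in natural males than natural females (-2.03, unadjusted p = 0.0069, adjusted p = 0.145), and Prtn3 was lower in IVF than natural males (-3.28, unadjusted p = 0.0265, adjusted p = 1).

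Of 13 hepatocyte transcription factors all were tested and 0 called. Foxa3 and Cebpd were nearest in natural males against natural females, with log2 fold changes of 1.35 and 1.34 (adjusted p = 0.0751 and 0.123). Of 18 genes of the secretory pathway that folds and exports serpins, all were tested and 0 called. In IVF against natural females 17 of the 18 had a positive log2 fold change, with a median of 0.30 against -0.01 for all genes. Edem1, with a log2 fold change of 0.44, had the smallest p there (edgeR's unadjusted p = 0.0333, adjusted p = 1). In natural males against natural females 16 of 18 were positive, with a median of 0.45.

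Growth hormone sets much of the sex difference of rodent liver, and 23 known sex-biased targets and regulators were listed. Because they were listed for a known sex difference, their calls by sex are given as a description only. In natural animals 7 were called higher and 8 lower in males, and after IVF 8 higher and 8 lower. Of all genes 1.77% and 2.19% were called. Cyp3a41a, a cytochrome P450 of female liver, was far lower in males, with a log2 fold change of -9.76 in natural animals (adjusted p = 2.13e-05). As a description, Serpina12, at 4.39, lay between the male-biased Cyp7b1 (3.83) and Cyp2d9 (5.72) in that comparison. Whether growth hormone acts on Serpina12 was not tested. The transcription factor gene Stat5b had 28.5 to 80.2 CPM, with groups that overlapped in every comparison.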

How the data were processed

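The deposited table held raw read counts by gene symbol, 1 column per library, which the authors made from poly-A RNA libraries sequenced on an Illumina NextSeq instrument, per the labels' protocols. Trimmomatic 0.32, STAR 2.3.0e, featureCounts 1.5.0 and the build mm10 are named in the submitters' processing notes. Strand use and the handling of reads that match several genes are not given in the sources used here. Columns were assigned by names equal to the sample titles. The labels call the 3 libraries of a group replicates without saying that they are separate animals or litters, so p-values measure the spread between these samples, which may be technical.

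Counts were analysed with edgeR 4.0.16 (R 4.3.3): filterByExpr by group, TMM scaling, 1 quasi-likelihood model over all 12 libraries and Benjamini-Hochberg adjustment over 13204 genes, with calls at an adjusted p under 0.05. The standard error of a log2 fold change was its size over the square root of F. Shares of Serpina1 genes were tested by exact two-sided permutation within strata, for which 0.005 is the smallest possible p. Code was tested on simulated counts. Alternatives were DESeq2 1.42.0 (test or size factors), limma 3.58.1 voom, library size alone, other filters, the Serpina1 genes summed, and leaving out libraries. Coding sequences came from GENCODE M21 transcripts, aligned with mafft 7.526, and promoters from RefSeq. Sequence runs were compared at a length of 75 bases as a choice of this work.

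The 10 serpins and all gene lists were chosen with earlier results of these data known. All 10 serpins are named. From each list, called genes were named, up to 3 per comparison by smallest p, and otherwise up to 2 of smallest unadjusted p. Likeness was Pearson's r of log2 CPM over 12 libraries among genes that averaged 1 CPM or more, with the 5 genes closest to Serpina12 and the 3 closest to Serpina3n named. Klk7, Elane, Nr3c1, Stat5b, Serpina4-ps1, Cyp7b1, Cyp2d9, Lep, Retn and Adipoq were named outside that rule. Of the remaining marker lists, cholangiocyte, stellate cell, sinusoidal endothelium, keratinocyte and pancreatic acinar markers had 0 genes called in any comparison. Protein sequences were not used here, and some genes that the rule would name are not reported here.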

Additional observations from a re-analysis of the deposited data

How the results depend on the processing

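Alternatives left 0 of 9 serpins other than Serpina12 called for IVF in females, in males and in the difference of both. By sex in natural animals, where edgeR called 0, library size alone called 1 (Serpina6), no filter on low counts 1 (Serpina1e) and DESeq2's Wald test 4, and leaving out 1 library gave 0 to 1. By sex after IVF, where edgeR called 1, DESeq2 called 2, the fit without the 2 shallow libraries 0, and leaving out 1 library gave 0 to 2. Library size alone moved the median of all genes to -0.336 on the log2 scale for sex in natural animals, to 0.143 for IVF in males and to -0.102 for sex after IVF. Its log2 fold changes for sex in natural animals were 0.38 for Serpina1a, 0.47 for Serpina1b, 0.37 for Serpina1c and 0.54 for Serpina1d. For Serpina6 the value was -1.16. In the shares of Serpina1 counts by sex, leaving out 1 library gave differences of -3.45 to -2.08 points for Serpina1a (adjusted exact permutation p from 0.025), -3.41 to -1.63 for Serpina1b (from 0.0167), -3.05 to -2.40 for Serpina1c and 8.68 to 11.7 for Serpina1e. The lowest p for Serpina1a came without IVF female replicate 1, and that for Serpina1b without natural male replicate 2. For Serpina1d, leaving out 1 library gave -2.85 to -0.947 points (adjusted exact permutation p from 0.0917). Without the 2 shallow libraries Serpina1c gave -2.46, Serpina1d -0.006 and Serpina1e 9.26. The IVF difference in the share of Serpina1e was 1.42 points, and turned to -0.179 without IVF male replicate 1 and to -0.136 without IVF male replicate 3, ranging up to 3.48; no alternative called it. The cause of these changes was not tested beyond the libraries left out. No paired analysis was possible because the replicate numbers only follow the order of deposit, and the numbers in the titles are shared across groups by a single pair, IVF female replicate 1 and IVF male replicate 2. Depth limits Serpina12 in natural females, where a library had as few as 5 counts.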
